A study of Danio rerio with 28 samples.

Results

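Expression of 9 macrophage genes was followed across the guts of zebrafish larvae with and without il22: mfap4.1, spi1b, havcr1, mpeg1.1, marco, csf1ra, c1qa, c1qb and c1qc. They were taken by gene symbol, or a unique older symbol, from 2 count tables of 16134 and 15419 rows. Only 4 of the 9 held counts in each table, and 2 of these, havcr1 and csf1ra, held enough counts for a test in both. The remaining pair, mfap4.1 and spi1b, could be tested only in experiment 2.

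Macrophages are phagocytes that clear microbes and dying cells, and in the gut wall they lie beneath the epithelium and among the muscle and nerve layers. Their lineage is set up by the transcription factor PU.1, the product of spi1b in zebrafish, and they depend for survival and growth on the CSF1 receptor. Interleukin-22, the product of il22, is a cytokine known for acting on epithelial cells through STAT3 rather than on blood cells.

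The libraries were 28 pools, each of 10 to 15 guts dissected from larvae 7 days after fertilization. In experiment 1, wild type was compared with il22-/- larvae whose housing the labels do not state. In experiment 2, wild type and il22-/- larvae were reared conventionally or germ-free (axenic), and a further group of il22-/- larvae was co-housed, with companions that the labels do not name. Each of the 7 groups had 4 libraries, and nothing in the labels says whether wild type and knockout larvae came from the same clutches. Totals ranged from 30.24 to 37.95 in experiment 1 and from 22.26 to 31 in experiment 2, in units of 1e+06 counts. Because il22 is missing in every cell of the knockout, the cells in which its loss acts cannot be told apart.

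The targeted gene, il22, lay between 3.99 and 13.8 CPM (counts per 1e+06, scaled by library) in the 4 wild type libraries of experiment 1 and between 0.154 and 1.91 in its 4 knockout libraries, with no overlap. In experiment 2 it was near the detection limit, with 40 counts over the 4 conventional wild type libraries, 19 over the conventional knockout, 7 over the germ-free wild type, 3 over the germ-free knockout and 32 over the co-housed knockout. There it does not check the labels. Genes of the gut epithelium summed to group means of 18090 to 23490 CPM, most of it from chia.2 (12360 to 16920 CPM). Of the same list vil1 (1292 to 2057 CPM) and cdh17 (503.5 to 769 CPM) were also high, while fabp2 was near the detection limit (0.153 to 0.454 CPM). Apart from fabp2, the tissue thus matched its label. Skeletal muscle genes summed to 550 CPM in conventional wild type library 1, 408 in germ-free wild type library 2 and 131 in co-housed library 2, and to between 8.80 and 52.7 CPM in the other libraries of experiment 2. Calls of the macrophage genes that change without these 3 libraries are named where they occur. Changes in the number of calls over all genes are given in the closing section. Genes of the other lists were not checked in this way.

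The macrophage genes with counts were low in whole gut. Compared per transcript length, in TPM (transcripts per 1e+06), the conventional wild type level was 6.39 ± 1.41 for havcr1, 5.2 ± 1.82 for mfap4.1, 3.81 ± 0.444 for spi1b and 3.28 ± 0.917 for csf1ra (SD, n = 4). Neighbours in this order differed by less than the larger of their SDs, although mfap4.1 and spi1b, and spi1b and csf1ra, differed by more than the SD of spi1b. Since only a small part of a gut pool is macrophages, fewer macrophages and less RNA per macrophage cannot be told apart in any of the values that follow.

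Of the 5 genes without counts, mpeg1.1 encodes the pore-forming protein perforin-2 and is the gene whose promoter is most used to label zebrafish macrophages, and c1qa, c1qb and c1qc encode the chains of C1q, the recognition unit of the classical complement pathway that macrophages secrete. All 4 stood at 0 in all 28 libraries. Over single libraries a count of 0 allows up to 3 counts, or 0.0791 to 0.135 CPM depending on the library total, which covers counting error only. The fifth, marco, a scavenger receptor of macrophages, had no row used here. A count of 0 in these tables may not measure a gene's RNA: 1108 symbols were at 0 in every library of both tables, and in RefSeq gene order (assembly GRCz12tu) the genes around the 4 were partly at 0 as well. Near mpeg1.1, smarcad1a, which encodes a chromatin remodeller, had 0 counts in experiment 1 and 1 in experiment 2. Directly beside mpeg1.1, prf1.5 had 37 and 90 counts, and of the genes a little farther off prf1.6 had 4 and 9 and tspan36 6747 and 11342. Next to the adjoining c1qb, c1qc and c1qa, fbxo40.1 was at 0 in both tables, and arhgap42a, farther along, had 3032 and 4017 counts. No level of mpeg1.1, marco or the C1q chains is therefore given.

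In experiment 1, mfap4.1 was spread over 2 transcript rows with 8 counts in all and spi1b over 3 transcript rows with 1 count in all, against 1089 and 2602 counts in experiment 2. Among the symbols with a mean of at least 50 counts in experiment 2, 187 of the 430 with several transcript rows in experiment 1 (43.5%) held under 10 counts over its 8 libraries, against 11 of the 8542 with 1 row (0.129%). Low values of genes with several transcript rows were thus common in that table. Exact two-sided permutation tests of the CPM of the genotypes gave p = 0.657 for mfap4.1 and p = 1.00 for spi1b (n = 4 against 4, smallest possible p 0.0286), which at these counts carry no information.

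Under conventional rearing, mfap4.1, a secreted fibrinogen-domain protein gene that marks zebrafish macrophages, stood in the knockout at 15.7% of its wild type level. It measured 3.18, 6.18, 2.83 and 5.28 CPM in the wild type libraries and 0.792, 0.770, 0.622 and 0.565 CPM in the knockout libraries. No knockout library reached the lowest wild type one, and the knockout libraries lay closer together. The means were 4.37 ± 1.62 and 0.687 ± 0.111 CPM (SD, n = 4), for a log2 fold change of −2.66 ± 0.30 (approximate SE, edgeR quasi-likelihood test with Benjamini-Hochberg adjustment over 11254 genes, adjusted p = 1.68e-06).

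The lineage factor gene spi1b measured 6.10, 6.80, 5.97 and 7.83 CPM in the conventional wild type libraries. In the knockout it measured 4.64, 3.35, 3.73 and 2.99 CPM. The groups did not overlap, and the means of 6.68 ± 0.853 and 3.68 ± 0.712 CPM (SD, n = 4) put the knockout at 55.1% of wild type. The log2 fold change was −0.86 ± 0.17 (edgeR, adjusted p = 0.000688).

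The third gene, havcr1, belongs to the TIM family, whose mammalian members bind phosphatidylserine on dying cells. It measured 4.71, 4.31, 3.70 and 6.22 CPM in the conventional wild type and 2.627, 2.001, 2.012 and 2.017 CPM in the knockout. Again all knockout libraries were lower, with knockout library 1 above the other three, which were nearly equal. The means were 4.74 ± 1.08 and 2.17 ± 0.309 CPM (SD, n = 4) and the log2 fold change was −1.13 ± 0.25 (edgeR, adjusted p = 0.00192).

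The receptor gene csf1ra did not show this pattern. Its wild type libraries measured 6.17, 9.33, 7.33 and 11.9 CPM and its knockout libraries 10.3, 7.47, 6.88 and 4.72 CPM. The ranges overlapped over most of their length, and the difference of −0.24 ± 0.23 on the log2 scale did not pass the test (edgeR, adjusted p = 0.440). In zebrafish csf1ra is also expressed by yellow pigment cells. A list of genes of several pigment cell types, not of yellow ones alone, summed to 13.4 ± 4.22 CPM in the conventional wild type (10.7 to 19.7). In the conventional knockout it summed to 8.19 ± 0.700 CPM (SD, n = 4). The part of pigment cells in the level of csf1ra was not tested.

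Under conventional rearing 3 of the 4 tested genes were thus called lower and none higher, where 36.2% of all 11254 genes were called in either direction and 19.1% were called lower. The same 3 did not overlap between the genotypes, a property of 31.3% of all genes. The knockout moved a large part of the transcriptome, so a call in it is common, and no count over these 4 genes is offered as evidence that macrophage genes as a class fell. The size of the mfap4.1 difference is given by its own values.

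**Figure D1:**
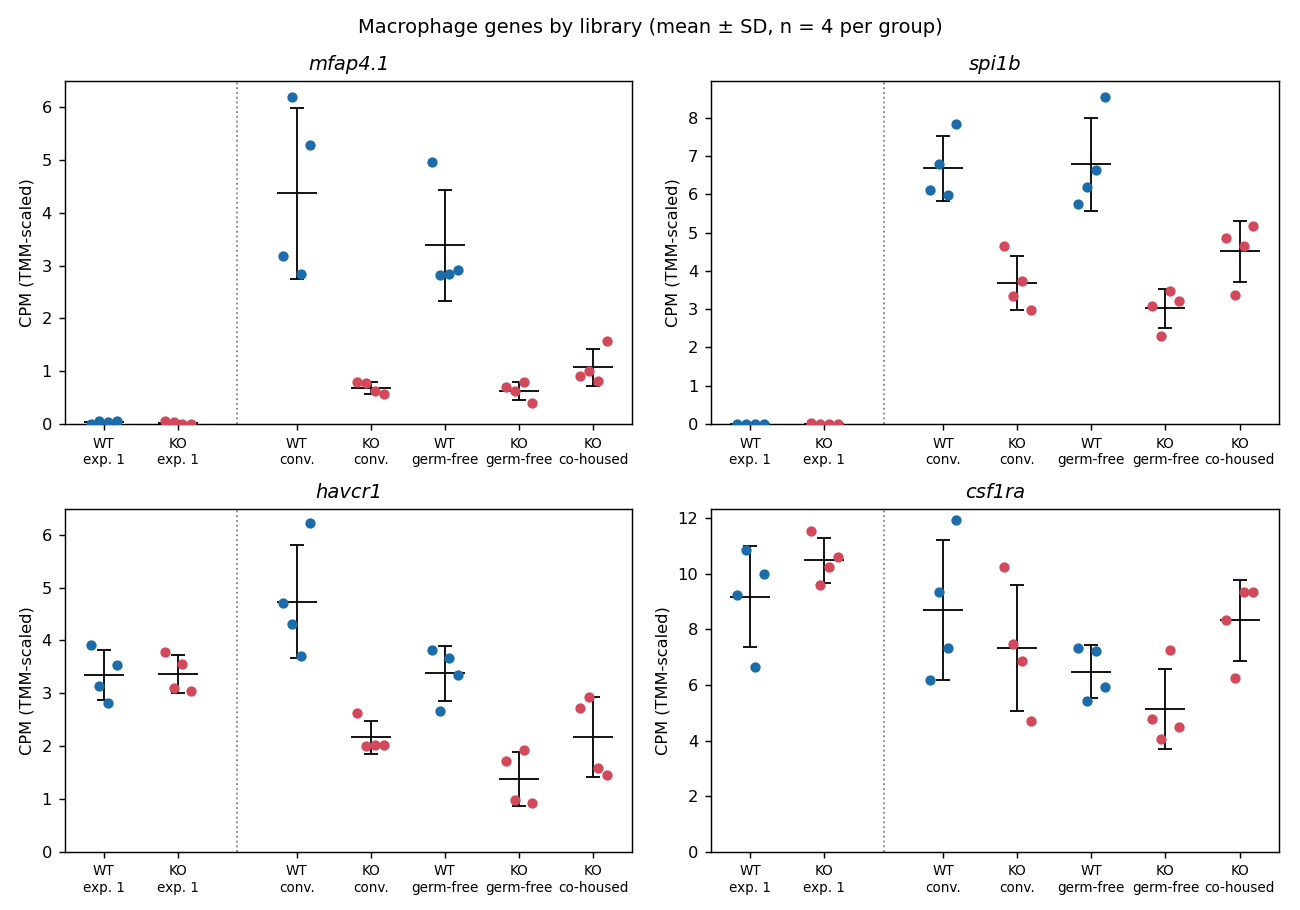
CPM of mfap4.1, spi1b, havcr1 and csf1ra (vertical axes, linear from 0) in each of the 28 libraries, by group, with wild type in blue, knockout in red, the mean as a bar and the SD as whiskers (n = 4). Right of the dotted line is experiment 2. There the 3 knockout groups of mfap4.1 lie between 0.397 and 1.57 CPM, below all wild type libraries (2.82 to 6.18). By contrast csf1ra overlaps between all groups compared. In experiment 1 mfap4.1 and spi1b, with points near 0, are split over several transcript rows, and the cause of their low counts was not tested.

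Germ-free rearing allowed the same comparison in larvae without a microbiota. In the germ-free wild type mfap4.1 measured 4.96, 2.82, 2.84 and 2.92 CPM, and in the germ-free knockout 0.701, 0.631, 0.801 and 0.397 CPM. The groups did not overlap, and library 1 stood above the other wild type libraries, which were nearly equal. The germ-free knockout stood at 18.7% of the germ-free wild type, a log2 fold change of −2.41 ± 0.30 (edgeR, adjusted p = 7.09e-06).

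For spi1b the germ-free wild type measured 5.752, 6.196, 6.631 and 8.529 CPM and the germ-free knockout 3.08, 2.29, 3.49 and 3.22 CPM, with a log2 fold change of −1.17 ± 0.17 (edgeR, adjusted p = 4.84e-05). For havcr1 they measured 3.82, 2.67, 3.67 and 3.34 CPM against 1.71, 0.986, 1.92 and 0.914 CPM, with a log2 fold change of −1.28 ± 0.26 (edgeR, adjusted p = 0.00112). Neither gene overlapped between the genotypes. For csf1ra, 7.33, 5.41, 7.22 and 5.92 CPM in the wild type overlapped with 4.79, 4.06, 7.25 and 4.49 CPM in the knockout, where library 3 reached the wild type range, and the log2 difference of −0.33 ± 0.24 did not pass (edgeR, adjusted p = 0.350).

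Among germ-free larvae 3 of the 4 tested genes were again lower and none higher, against 26.8% of all genes called in either direction and 13.3% called lower, and 29.8% that did not overlap between the genotypes. Of the calls over all genes, 50.4% were higher in the germ-free knockout, a share that moved to 63.4% with scaling by library totals alone and to 67.0% on log2(TPM + 1). The fall of mfap4.1, spi1b and havcr1 kept its direction and its call under each of the 16 alternatives run for this comparison and for the conventional one.

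Whether the knockout effect itself differed between germ-free and conventional larvae was tested as an interaction. The difference of the effects on the log2 scale was 0.25 ± 0.42 for mfap4.1, −0.31 ± 0.24 for spi1b, −0.15 ± 0.36 for havcr1 and −0.09 ± 0.33 for csf1ra (edgeR, adjusted p = 0.820, 0.572, 0.879 and 0.933). None of the 4 passed, against 0.444% of all genes, and none of the 4 had an unadjusted p under 0.05. A missed threshold with SEs of this size does not show that the effects were equal.

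**Figure D2:**
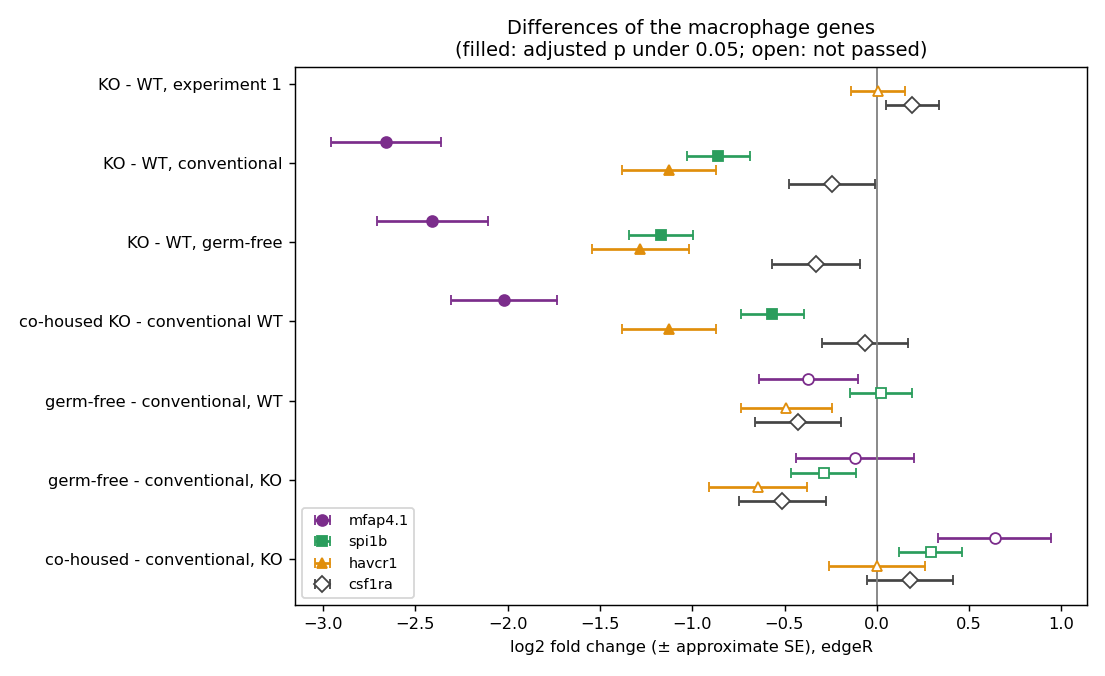
Log2 fold changes (horizontal axis) of the 4 tested macrophage genes in 7 comparisons, with bars for the approximate SE; filled symbols passed at an adjusted p under 0.05 in edgeR and open symbols did not. mfap4.1, spi1b and havcr1 are filled and left of 0 in the 3 comparisons of a knockout with wild type of experiment 2, and every symbol is open in the comparisons between rearings; comparisons with a group in common share its libraries.

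The microbiota alone was compared within each genotype. In wild type, germ-free larvae differed from conventional ones by −0.37 ± 0.27 for mfap4.1, 0.02 ± 0.17 for spi1b, −0.49 ± 0.25 for havcr1 and −0.43 ± 0.23 for csf1ra on the log2 scale, and none of the 4 passed the test where 25.2% of all genes did (edgeR, adjusted p from 0.157 to 0.938). In the knockout the differences were −0.12 ± 0.32, −0.29 ± 0.18, −0.64 ± 0.27 and −0.51 ± 0.24, and again none of the 4 passed against 27.2% of all genes (edgeR, adjusted p from 0.0791 to 0.812). For havcr1 the germ-free knockout libraries all lay below the conventional knockout libraries, and 33.5% of all genes failed to overlap in this comparison in either direction. Its call and that of csf1ra depended on single libraries: without germ-free knockout library 3 both passed, and without conventional knockout library 4 csf1ra passed. These comparisons share their libraries with those between genotypes and are not separate support for them. In the wild type comparison fewer of all genes were called with these groups fitted alone or without the muscle-rich libraries. The 25.2% is thus a loose reference.

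Co-housing asked whether company changes the knockout gut. In the co-housed knockout mfap4.1 measured 0.905, 0.999, 0.811 and 1.57 CPM, each above the highest conventional knockout library but only narrowly so for library 3. The difference of 0.64 ± 0.31 on the log2 scale did not pass the test (edgeR, adjusted p = 0.294), and 12.6% of all genes failed to overlap between these groups. For spi1b the co-housed libraries measured 4.86, 3.37, 4.65 and 5.17 CPM, which overlapped with the conventional knockout, and the difference was 0.29 ± 0.17 (adjusted p = 0.406). For havcr1 they measured 2.71, 2.92, 1.58 and 1.45 CPM, on both sides of the conventional knockout range, with a difference of 0.00 ± 0.26 (adjusted p = 0.999). For csf1ra they measured 8.33, 6.26, 9.34 and 9.35 CPM, with a difference of 0.18 ± 0.23 (adjusted p = 0.746). None of the 4 passed, against 2.59% of all genes.

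Set against the conventional wild type, which also served as control above, the co-housed knockout stood at 24.5% for mfap4.1 (log2 −2.02 ± 0.29, adjusted p = 2.83e-05), 67.6% for spi1b (−0.57 ± 0.17, adjusted p = 0.0158), 45.7% for havcr1 (−1.13 ± 0.26, adjusted p = 0.00226) and 95.8% for csf1ra (−0.06 ± 0.23, adjusted p = 0.860), all by edgeR. The first 3 did not overlap with the conventional wild type, a property of 26% of all genes, and were called lower, as were 17.1% of all genes (33.2% in either direction). Without the 3 libraries rich in muscle transcripts spi1b no longer passed (−0.49, adjusted p = 0.0603, with adjusted p from 0.00626 to 0.0603 over its 16 alternatives).

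In experiment 1 the knockout left no such mark on the genes that could be tested. The wild type libraries measured 3.91, 3.14, 2.82 and 3.54 CPM of havcr1 and the knockout libraries 3.79, 3.09, 3.55 and 3.04 CPM, with overlapping ranges, as for csf1ra (34.3% of all genes did not overlap). The log2 fold change was 0.01 ± 0.15 (edgeR, adjusted p = 0.979). For csf1ra the wild type libraries measured 9.23, 10.8, 6.64 and 9.99 CPM and the knockout libraries 11.5, 9.61, 10.2 and 10.6 CPM, with a log2 fold change of 0.19 ± 0.14 (edgeR, adjusted p = 0.337). Neither of the 2 tested genes passed, against 33.1% of all 10710 genes tested there.

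The effects of the knockout in experiment 1 and under conventional rearing in experiment 2 were then compared in a single fit. For havcr1 they differed by 1.12 ± 0.24 on the log2 scale (edgeR, adjusted p = 0.00699), and for csf1ra by 0.43 ± 0.31 (adjusted p = 0.441). Thus 1 of the 2 genes passed, where 9.9% of all genes did. The experiments differ in table, counting by transcript or by symbol, and possibly housing, which cannot be told apart.

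The gene next to mfap4.1 in RefSeq order, mfap4.2, and a further member of the cluster, mfap4.5, had counts in experiment 1, where mfap4.1 had only 8. In experiment 1 mfap4.2 measured 3.17, 4.764, 2.202 and 4.075 CPM in wild type and 1.82, 1.64, 2.37 and 1.45 CPM in the knockout, overlapping in 1 library of each genotype. It was lower by −0.97 ± 0.25 on the log2 scale (edgeR, adjusted p = 0.0165). In experiment 1 mfap4.5, with no row used here in experiment 2, measured 3.68, 3.87, 5.68 and 2.68 CPM in wild type and 0.431, 0.649, 0.691 and 1.195 CPM in the knockout. These did not overlap, and the log2 fold change was −2.42 ± 0.33 (edgeR, adjusted p = 0.000572).

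In experiment 2 mfap4.2 averaged 2.82 ± 0.172 CPM in the conventional wild type and 1.05 ± 0.553 CPM in the conventional knockout (SD, n = 4), a log2 fold change of −1.42 ± 0.33 (edgeR, adjusted p = 0.00218). Under germ-free rearing it averaged 2.98 ± 0.672 and 0.750 ± 0.249 CPM, a log2 fold change of −1.98 ± 0.34 (adjusted p = 0.000195). Not every copy fell. In the conventional knockout mfap4.4 rose by 3.05 ± 0.82 (edgeR, adjusted p = 0.00711), from 0 to 9 counts per library to 13 to 35. In the conventional and the germ-free comparison mfap4.10 did not pass. The co-housed knockout was above the conventional wild type in mfap4.10 (1.997 ± 0.505, edgeR, adjusted p = 0.00508) and mfap4.4 (2.815 ± 0.832, adjusted p = 0.0142). Of 3 copies tested, 1 was called higher and 1 lower in conventional larvae, where 36.2% of all genes were called. Germ-free larvae had 1 called lower, where 26.8% were called. In the co-housed knockout against the conventional wild type 2 were higher and 1 lower, where 33.2% were called. The copies are close in sequence, so reads could have been split or shared among them, and the division between copies is uncertain.

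**Figure D3:**
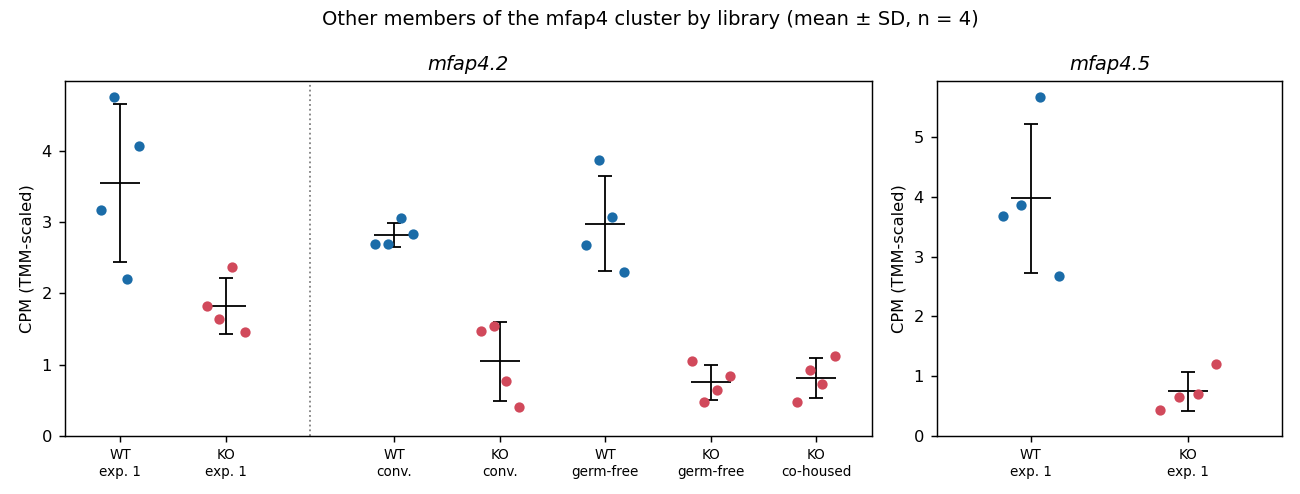
CPM (vertical axes, linear from 0) of mfap4.2 in both experiments and of mfap4.5 in experiment 1, by library and group, with mean and SD (n = 4). For mfap4.2 the knockout means (0.750 to 1.82 CPM) lie below the wild type means (2.82 to 3.55 CPM) in both experiments. For mfap4.5 all knockout libraries lie below all wild type libraries. The copies mfap4.4 and mfap4.10, whose knockout means were not lower than their wild type means, are not shown.

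A wider list of 25 macrophage genes, read for context, held 11 that could be tested in each experiment. In conventional larvae 4 fell and 1 rose in the knockout, and 6 did not pass, where 19.1% of all genes were called lower and 36.2% in either direction. The cathepsin gene ctss2.1, of a lysosomal protease, fell from 11.1 ± 6.03 to 3.11 ± 0.628 CPM (log2 −1.84 ± 0.36), and the chemokine receptor gene cxcr3.2 from 3.16 ± 1.02 to 1.40 ± 0.435 CPM (−1.17 ± 0.28). The chemerin receptor gene cmklr1 (−0.77 ± 0.23) and ctss2.2 (−0.75 ± 0.25) also fell, and the galectin gene lgals9l1 rose (0.81 ± 0.20). The median log2 fold change of the 11 was −0.42, against −0.02 for all genes. The list was chosen with earlier results of these data known, so its medians here and below are descriptions only.

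In germ-free larvae 3 of the 11 fell, with log2 fold changes of −1.18 ± 0.25 for cmklr1, −1.22 ± 0.26 for ctss2.2 and −1.199 ± 0.288 for cxcr3.2, and 8 did not pass, where 13.3% of all genes were called lower and 26.8% in either direction. The median was −0.46, against −0.00382 for all genes. Genes widely used as markers of the lineage were among those that did not pass in either rearing: irf8, a transcription factor of macrophage fate, at −0.28 ± 0.28 and −0.36 ± 0.29, and mpeg1.2, a relative of mpeg1.1, at −0.01 ± 0.66 and −1.54 ± 0.66. For mpeg1.2 the germ-free wild type libraries alone ranged from 2.06 to 12.4 CPM. In the co-housed knockout against the conventional knockout none of the 11 passed, where 2.59% of all genes did, and against the conventional wild type 5 were lower and 1 higher, where 33.2% of all genes were called. Between germ-free and conventional larvae 2 were lower and 1 higher in wild type, and 1 lower and 1 higher in the knockout, where 25.2% and 27.2% of all genes were called. In experiment 1 lgals9l1 rose by 0.85 ± 0.17, none fell, and 10 of the 11 did not pass, where 33.1% of all genes were called (median −0.05, against −0.01 for all genes).

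Receptors and adaptors of engulfment were counted in the same way. Of 7 tested in conventional larvae 5 fell, led by the mannose receptor gene mrc1b from 19.7 ± 3.004 to 7.77 ± 1.49 CPM (log2 −1.34 ± 0.16, adjusted p = 2.90e-06) and the stabilin gene stab1 (−0.87 ± 0.15), with elmo1, an adaptor of engulfment, at −0.48 ± 0.08, where 19.1% of all genes were called lower. In germ-free larvae 3 fell, mrc1b (−0.82 ± 0.16), elmo1 (−0.37 ± 0.09) and stab2 (−0.995 ± 0.28), and cd36 rose (0.38 ± 0.11), where 26.8% of all genes were called in either direction. In experiment 1, 2 of 6 fell, stab2 (−2.24 ± 0.30) and stab1 (−0.77 ± 0.15), and cd36 rose (0.92 ± 0.19), where 33.1% of all genes were called. In zebrafish mrc1b and the stabilins also mark lymphatic and venous endothelium, and scarb1 and cd36 are epithelial lipid receptors as well, so this list is not particular to macrophages.

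Of the CSF1 pathway and myeloid transcription factors, 1 of 10 fell in conventional larvae, mafba, of a MAF factor of macrophages (−0.65 ± 0.18), and 1 of 10 in germ-free larvae, spi1a, the second PU.1-like gene of zebrafish (−0.82 ± 0.20). The ligand gene il34 rose in the knockout of experiment 1 (1.08 ± 0.14) together with cebpa (1.42 ± 0.30), and runx1 fell there (−0.68 ± 0.17), among 8 tested. These shares lie near or below those of all genes called in either direction, 36.2% in conventional larvae, 26.8% in germ-free larvae and 33.1% in experiment 1, and say nothing about this list. In the germ-free against the conventional knockout 4 of 10 were lower, and 1 of 10 in wild type, where 27.2% and 25.2% of all genes were called. In the co-housed against the conventional knockout cebpd (−1.24 ± 0.17) and cebpa (−1.17 ± 0.27) fell among 10 tested, where 2.59% of all genes were called. Both C/EBP factors act in other cells as well.

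**Figure D4:**
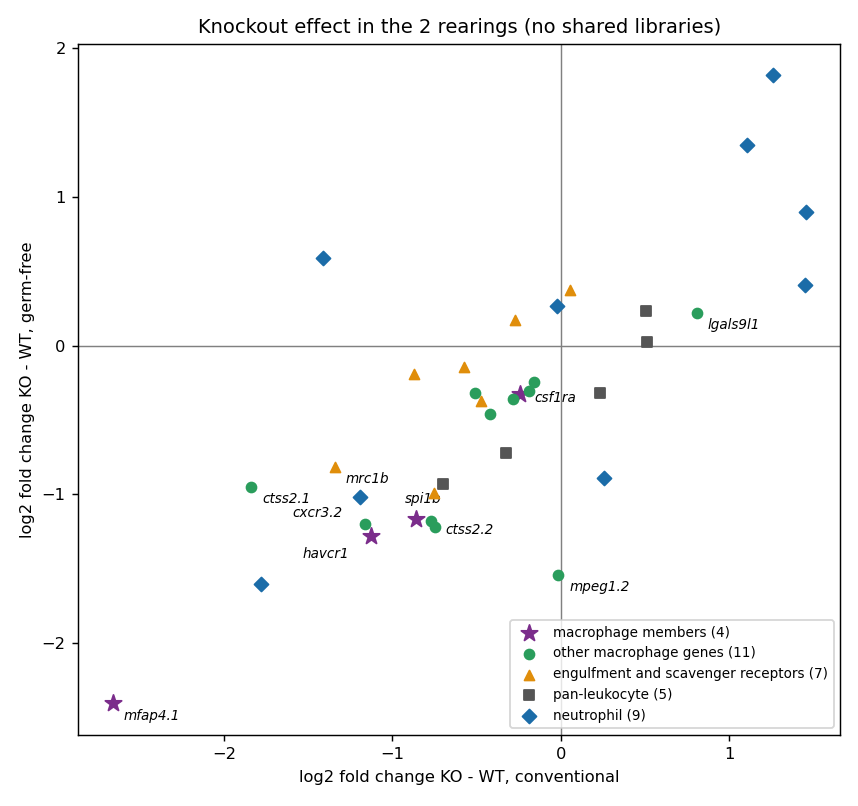
Log2 fold change of the knockout under conventional (horizontal axis) and germ-free rearing (vertical axis), which share no library, for 4 macrophage genes (stars), 11 other macrophage genes, 7 engulfment genes, 5 pan-leukocyte genes and 9 neutrophil genes. mfap4.1 lies farthest to the lower left at −2.66 and −2.41, csf1ra near 0 at −0.24 and −0.33, and neutrophil genes lie in both corners.

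A list of pan-leukocyte genes summed to 160 ± 21.4 CPM in the conventional wild type and 194 ± 20.8 CPM in the conventional knockout (SD, n = 4), with 2 of 5 tested genes higher (arhgdig and rac2) and 1 lower (wasb), where 36.2% of all genes were called. In germ-free larvae it summed to 151 ± 5.86 and 136 ± 8.70 CPM, with wasb (−0.93 ± 0.18) and lcp1, of the leukocyte actin bundler L-plastin (−0.72 ± 0.19), lower among 5, where 26.8% of all genes were called. Set per 100 CPM of this list, mfap4.1 measured 2.70 ± 0.817 in the conventional wild type and 0.353 ± 0.0324 in the conventional knockout, and 2.23 ± 0.630 and 0.461 ± 0.106 in the germ-free groups. On the same scale spi1b measured 4.19 and 1.88 in the conventional groups and havcr1 2.97 and 1.11, and in the germ-free groups they measured 4.49 and 2.23, and 2.23 and 1.01. On this scale wild type and knockout did not overlap for these 3 genes in either rearing. The share of all genes that did not overlap on this scale was not counted. The same libraries are used as above, so this is not separate support. In conventional larvae the higher sum of the knockout by itself lowers its values on this scale. That sum was led by arhgdig (58.1 and 82.4 CPM in conventional wild type and knockout) and rac2 (37.5 and 53.3 CPM). Both were higher in the knockout, as was ptpn6 (24.4 and 28.6 CPM). By contrast lcp1 (28.8 and 23.0 CPM) and wasb (11.5 and 7.07 CPM) were lower. The values per 100 CPM therefore depend on which leukocyte genes are summed. For csf1ra the level on this scale was 5.35 ± 0.931 (4.54 to 6.57) in the conventional wild type and 3.71 ± 0.772 (2.80 to 4.67) in the conventional knockout, with a narrow overlap, and 4.28 and 3.76 in the germ-free groups.

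Neutrophil genes summed to 126 ± 23.0 CPM in the conventional wild type and 270 ± 103 CPM in the conventional knockout, and to 68.1 ± 11.8 and 114 ± 16.7 CPM in the germ-free groups. Of 9 tested, 4 rose and 2 fell in conventional larvae, and 3 rose and 2 fell in germ-free ones, where 36.2% and 26.8% of all genes were called. The oxidase subunit gene ncf1 rose in both (1.11 ± 0.19 and 1.35 ± 0.19), and csf3r, of the receptor for granulocyte colony-stimulating factor, fell in both (−1.19 ± 0.23 and −1.02 ± 0.23). The sums were led by ncf1 and pnp5a, whereas the granule genes that define neutrophils did not rise: the myeloperoxidase gene mpx fell from 9.87 to 3.71 CPM in conventional larvae (adjusted p = 0.0475), and the lysozyme gene lyz, at 2.95 and 0.860 CPM, did not pass (adjusted p = 0.0530). The part of neutrophils in the levels of the macrophage genes was not tested. Lymphoid genes summed to 41.1 ± 9.80 and 32.9 ± 4.197 CPM in the conventional wild type and knockout, and to 31.4 ± 3.99 and 17.03 ± 2.863 CPM in the germ-free ones.

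**Figure D5:**
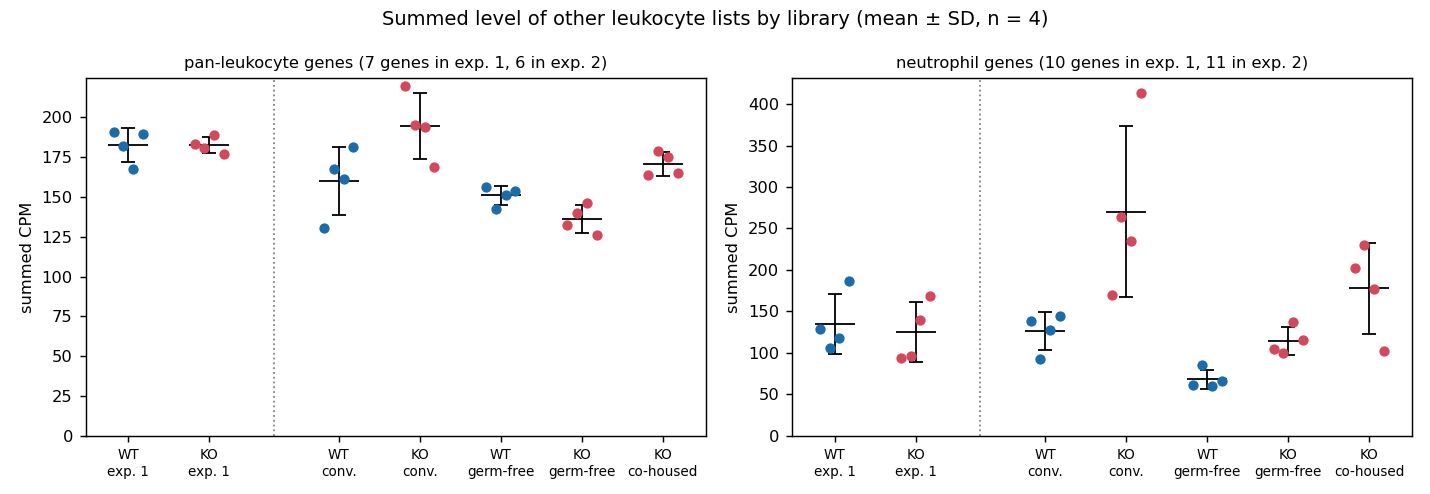
Summed CPM (vertical axes, linear from 0) of a pan-leukocyte list and a neutrophil list in each library, by group, with mean and SD (n = 4); the number of genes with counts in each table is in the panel titles. The pan-leukocyte sum of the conventional knockout (194 ± 20.8) is not below that of the conventional wild type (160 ± 21.4), and the neutrophil sum is higher in the conventional knockout (270 ± 103 against 126 ± 23.0). The genes of the pan-leukocyte sum go both ways between these groups: arhgdig and rac2, which lead it, and ptpn6 have higher means in the knockout, and lcp1 and wasb lower ones. The neutrophil genes go both ways as well: ncf1 and pnp5a lead their sum, while mpx and csf3r were called lower in the conventional knockout.

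The genes whose levels followed the 4 macrophage genes most closely were ranked by Pearson's r with their mean standardized log2 CPM over the 20 libraries of experiment 2, among 7214 genes with a mean of at least 5 CPM. Genes with provisional names (holding a colon or a bar, or starting with LOC) were left out of this ranking. The first of the ranked genes was nckap1l (r = 0.939), of the leukocyte actin regulator HEM1. It was followed by grna (0.926), a progranulin gene, ctss2.2 (0.913) and myo1f (0.895), a leukocyte myosin. The next 3, cyp2n13 (0.869), cyp3c4 (0.865) and ugt1b2 (0.864), belong to families of detoxifying enzymes. These r are descriptions: the libraries fall into groups that differ by genotype, so any gene with a like genotype difference scores high. Over the 8 libraries of experiment 1, with havcr1 and csf1ra alone, r was −0.07 for nckap1l, 0.11 for grna, −0.07 for ctss2.2 and 0.14 for myo1f, and 0.32 for cyp2n13, 0.44 for cyp3c4 and 0.69 for ugt1b2.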

How the data were processed

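The 9 genes and all lists were chosen with earlier results of these data known. RNA from pooled guts was sequenced as stranded, paired reads, and the build danRer11 and FastQC 0.11.8 are named per the labels' protocols, while neither the aligner and counting tool nor the annotation is given in the sources used here. The authors deposited raw counts for each experiment and a TPM table normalized for length and library total. Of the rows, 15776 in experiment 1 (named by transcript) and 15241 in experiment 2 (named by symbol, 930 through a unique older one) were given a current symbol from RefSeq; where a symbol had several rows, the largest was used. Coordinates are not printed, because the RefSeq table is of another build, and sequences were not used here.

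Counts were tested with the robust quasi-likelihood F test of edgeR 4.0.16 (R 4.3.3) after filterByExpr and TMM scaling, with Benjamini-Hochberg adjustment over all genes tested and a threshold of 0.05. Separate fits were made for experiment 1 and for the 5 groups of experiment 2, and a joint one on 16 libraries, testing 11047 genes, for the difference between experiments; mfap4.1 and spi1b were left out of it. CPM is per 1e+06 counts of the TMM-scaled library. The SE was approximated from the F statistic, as the size of the fold change over √F. Fold changes have the first-named group as numerator. The test was checked on simulated counts. Replicates are pools, so p-values measure the spread between pools.

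All 9 genes are named, and up to 4 of smallest p of each list per comparison; irf8 and mpeg1.2, the neighbours of genes at 0, mpx and lyz, and further list members with values were named after their values were seen. Alternatives were DESeq2 1.42.0, limma 3.58.1 on log2(TPM + 1), other scalings, no filter, summed rows, a replicate block, compared groups alone, and leaving out libraries. An outlier check by Dixon's critical value of 0.829 for 4 samples was run on 24 groups of values.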

Additional observations from a re-analysis of the deposited data

Results flagged for a closer look

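In germ-free wild type library 1 mfap4.1 reached 4.96 CPM and stood apart from the other 3 libraries of its group, and in conventional knockout library 1 havcr1 reached 2.63 CPM and stood apart in the same way. Among the 24 groups of 4 libraries checked, chance gives about 1 in 20 such cases. The effect of the knockout on havcr1 differed between experiment 1 and the conventional groups of experiment 2 by 1.12 on the log2 scale in a test of the difference itself (edgeR, adjusted p = 0.00699, and from 0.000345 to 0.0215 over 23 alternatives).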

How the results depend on the processing

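The number of the 4 genes called did not change in any comparison under another scaling, filter, tool or summed rows. Without the 3 muscle-rich libraries the number fell in the co-housed knockout against the conventional wild type, where spi1b no longer passed (edgeR, adjusted p = 0.0603). Leaving out 1 library moved it in the germ-free against conventional knockout, from 0 to between 0 and 2: it was 1 without conventional knockout library 4 and 2 without germ-free knockout library 3. Over all groups, replicate numbers did not mark pairs of libraries. Same-numbered libraries correlated from −0.431 to 0.359 in experiment 2 and from −0.0838 to 0.289 in experiment 1. In these experiments 15 of 80 and 2 of 8 libraries correlated best with their own number. Between the co-housed knockout and the germ-free wild type 3 of 4 did so in each direction. Whether some libraries shared a batch or clutch was not tested. With a replicate block the genes called remained 3 of 4 in each comparison of a knockout with wild type of experiment 2 and 0 in experiment 1.

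Signs turned for differences that did not pass. havcr1 in experiment 1 was at −0.0490 by library totals, −0.0219 on log2(TPM + 1) and −0.0658 to 0.0868 leaving out 1 library. spi1b in germ-free against conventional wild type was at −0.0131, −0.0607 and −0.104 to 0.139. havcr1 in the co-housed against the conventional knockout was at −0.00049 with RLE size factors, −0.0337 by library totals, −0.0195 without the filter, −0.185 without the 3 muscle-rich libraries, −0.00063 with DESeq2, −0.0709 on log2(TPM + 1) and −0.197 to 0.151 leaving out 1 library. Leaving out 1 library gave −0.269 to 0.0458 for mfap4.1 in germ-free against conventional knockout, −0.197 to 0.155 for csf1ra in the co-housed knockout against wild type and −0.308 to 0.120 for its interaction. The causes were not tested.

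Calls over all genes moved by over 1.5 times in germ-free against conventional wild type (2838 to 1270 with these groups alone and 1814 without the muscle-rich libraries), in the co-housed against the conventional knockout (292 to 166 by library totals, 564 without those libraries, 621 with DESeq2 and 177 on log2(TPM + 1)), in the co-housed knockout against wild type (3733 to 2465 with these groups alone) and in the interaction (50 to 26, 13, 82 and 351 by library totals, without those libraries, with the groups alone and with DESeq2). Leaving out 1 library moved them to between 1695 and 4154, 102 and 495, 2982 and 4435, and 7 and 989. The share of calls that were higher moved by library totals from 48.7% to 38.7% in experiment 1, from 47.8% to 36.8% in germ-free against conventional wild type (25.8% on log2(TPM + 1)), from 57.9% to 44.0% in the co-housed against the conventional knockout (31.1%), and from 48.9% to 29.8% in the difference between experiments.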
